A study of Mus musculus with 2 samples.

Results

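Liver macrophages and sinusoidal endothelial cells clear particles, lipoproteins, dead cells and aged proteins from blood through scavenger receptors, and 10 such genes were followed here out of 31053 in the count table: Marco, Msr1, Cd163, Stab1, Stab2, Mrc1, Clec4f, Vsig4, Timd4 and Cd5l. They were chosen by name, and their UMIs (unique molecular identifiers, each 1 captured transcript) were compared between macrophage-like and endothelial cell-like barcodes that had been set by UMIs of other marker genes. The data came from 2 droplet libraries of transcript 3 prime ends, prepared from hepatocytes released by liver perfusion of C57BL/6 mice, a preparation in which other liver cells remained. The control library had the genotype LaptTA, the tetracycline transactivator under the liver-directed LAP promoter, and no inducible transgene. The tetYAP 4W library had the genotype LaptTA; tetYAP and so also carried an inducible activated YAP, a transcriptional coactivator, with a label of 4 weeks. In this model doxycycline food keeps the transgene off, and the study induced it by a return to regular diet when mice were 4 weeks old. The promoter directs the transgene to hepatocytes.

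Kupffer cells are the resident macrophages of the liver and sit in the sinusoids, where the endothelial lining is open and takes up macromolecules itself. MARCO and MSR1 are class A scavenger receptors for bacteria and modified lipoproteins, CD163 takes up hemoglobin bound to haptoglobin, and MRC1 is a mannose receptor. Stabilin-1 and stabilin-2, from Stab1 and Stab2, are large receptors for hyaluronan and modified proteins. CLEC4F is a lectin of mouse Kupffer cells, VSIG4 a complement receptor, TIMD4 a receptor for phosphatidylserine on dying cells, and CD5L a protein that macrophages secrete. All are protein-coding, and RefSeq places them on GRCm38.p6 with Marco at chr1:120474538-120505024, Msr1 at chr8:39543232-39642750, Cd163 at chr6:124304636-124330529, Stab1 at chr14:31139017-31168651, Stab2 at chr10:86841194-87008038, Mrc1 at chr2:14229414-14332023, Clec4f at chr6:83644542-83656116, Vsig4 at chrX:96247201-96293438, Timd4 at chr11:46810786-46844333 and Cd5l at chr3:87357881-87371074.

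The control library held 2989 barcodes with a median of 3117 UMIs, and the tetYAP 4W library 1524 barcodes with a median of 4150 UMIs. The median mitochondrial share was 28.1% and 37.7%. No barcode was shared between the libraries. Yap1, the targeted gene, had 155 and 128 UMIs, or 16.3 and 18.9 CPM (counts per 1000000 UMIs), which does not show the transgene, and whether its transcript is counted under Yap1 is not given in the sources used here. UMIs of Xist numbered 3 in the control and 4859 in tetYAP 4W, and those of 4 Y-linked genes numbered 716 and 0, so the libraries came from mice of different sex, and induction and sex cannot be told apart. With 1 library per group there was no test, differences are between these libraries, and all intervals are exact 95% intervals that cover counting error only.

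Markers put 24 control barcodes (0.803%) and 270 tetYAP 4W barcodes (17.7%) in the macrophage-like class, at median depths of 3906 and 4339 UMIs. The endothelial cell-like class held 59 (1.97%) and 163 (10.7%) barcodes, at 4546 and 5705 UMIs. The markers that set the classes are no independent check of them. In the control, endothelial cell-like barcodes had no UMI of the macrophage markers C1qa and Csf1r, but 4 of Mpeg1 and 1 each of C1qc and Ctss. Macrophage-like ones had none of the endothelial markers Kdr and Clec4g, but 4 of Ptprb and 1 each of Gpr182 and Bmp2. In tetYAP 4W, endothelial cell-like barcodes had 88 C1qa and 33 Csf1r UMIs, and macrophage-like ones 30 Kdr and 31 Clec4g UMIs. Cdh5, an endothelial marker encoding VE-cadherin, had 1.04 and 1.01 UMIs per macrophage-like barcode of the control and tetYAP 4W. Endothelial cell-like barcodes had 1.36 and 2.45, so this marker separated the classes little in the control. A limit of 10 marker UMIs defined both classes. Barcodes with 5 to 9 macrophage marker UMIs, just below it, numbered 10 in the control and 263 in tetYAP 4W, and those with 10 to 14, just above it, 4 and 53.

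**Figure D1:**
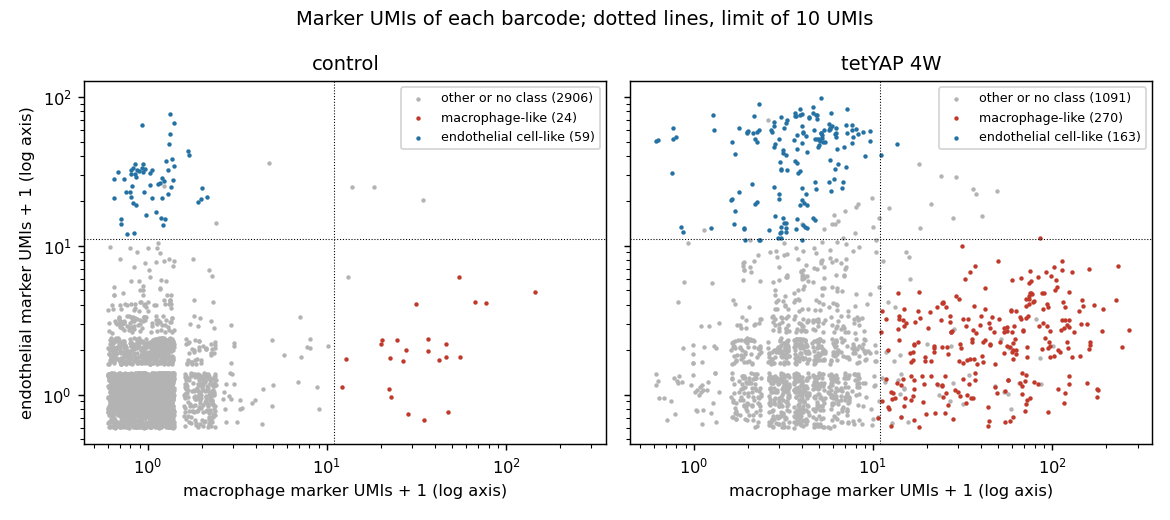
UMIs of macrophage markers (horizontal axis) and endothelial markers (vertical axis) in every barcode of the control (left) and tetYAP 4W library (right), as UMIs + 1 on log axes with small random shifts; colours mark the classes and dotted lines the limit of 10 UMIs. The macrophage-like group is sparse in the control (24 barcodes) and dense in tetYAP 4W (270 barcodes), where unclassed barcodes also reach up to the limit.

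Clec4f, Vsig4 and Cd5l were found in most macrophage-like barcodes. Clec4f averaged 7.21 UMIs per macrophage-like barcode in the control (6.17 to 8.37) and 9.95 in tetYAP 4W (9.58 to 10.3). It was found in 24 of 24 control and 243 of 270 tetYAP 4W barcodes, with a highest value of 13 and 55 UMIs in a single barcode. Cd5l averaged 7.08 UMIs in the control (6.06 to 8.23) and 12.5 in tetYAP 4W (12.1 to 12.9), and was found in 24 and 256 barcodes. Vsig4 averaged 4.46 (3.65 to 5.39) and 5.84 UMIs (5.56 to 6.14), in 24 and 216 barcodes. For these 3 genes, the lowest control barcode had 1 UMI, and some tetYAP 4W barcodes had none.

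Timd4 and Cd163 were found in fewer barcodes. Timd4 had 1.17 UMIs per macrophage-like barcode in the control (0.775 to 1.69) and 1.16 in tetYAP 4W (1.03 to 1.29), and a UMI in 62.5% and 52.6% of barcodes. Cd163 had 1.13 (0.741 to 1.64) and 0.626 (0.535 to 0.728), with a UMI in 58.3% and 35.9% of barcodes, so that its interval was lower in tetYAP 4W without overlap. Once each barcode was thinned to 2000 UMIs, the share with Cd163 was 29.2% (12.6 to 51.1) and 21.1% (16.4 to 26.5), and these intervals overlapped.

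Marco was nearly absent from control macrophage-like barcodes. Its 2 UMIs lay in 1 of 24 barcodes, or 4.17% (0.105 to 21.1). In the tetYAP 4W library 295 UMIs lay in 83 of 270 barcodes, or 30.7% (25.3 to 36.6), and after thinning to 2000 UMIs the share was 23.3% (18.4 to 28.8). Marco UMIs were concentrated: 22 barcodes with 5 or more held 59.7% of them, 30 barcodes had a single UMI, and the highest had 36. Lymphocyte-like barcodes of the same library, which should lack Marco, had a UMI in 6.75% at a median depth of 4506 UMIs and in 2.45% after thinning.

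Msr1 and Mrc1 were counted in both classes. Msr1 had 0.667 UMIs per macrophage-like barcode in the control (0.381 to 1.08) and 0.644 per endothelial cell-like one (0.456 to 0.884). In the tetYAP 4W library these values were 1.51 (1.37 to 1.67) and 0.779 (0.650 to 0.927), so the classes overlapped in the control and were apart in tetYAP 4W. Mrc1 had 1.25 and 2.51 UMIs per macrophage-like and endothelial cell-like barcode in the control, and 1.19 and 3.18 in tetYAP 4W. Mrc1 was thus higher in the endothelial class of both libraries, with intervals that did not overlap.

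Both stabilins lay in the endothelial class. Stab1 averaged 2.17 UMIs per endothelial cell-like barcode in the control (1.81 to 2.58) and 4.42 in tetYAP 4W (4.11 to 4.76), against 0.125 and 0.296 per macrophage-like barcode. Stab2 averaged 2.29 (1.92 to 2.71) and 4.28 (3.97 to 4.61), against 0.0417 and 0.141. A Stab1 UMI was found in 86.4% and 89.0% of endothelial cell-like barcodes and a Stab2 UMI in 88.1% and 84.7%, at the greater depth of the tetYAP 4W library. After thinning to 2000 UMIs the shares were 66.1% and 71.8% for Stab1, and 66.1% and 68.1% for Stab2.

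**Figure D2:**
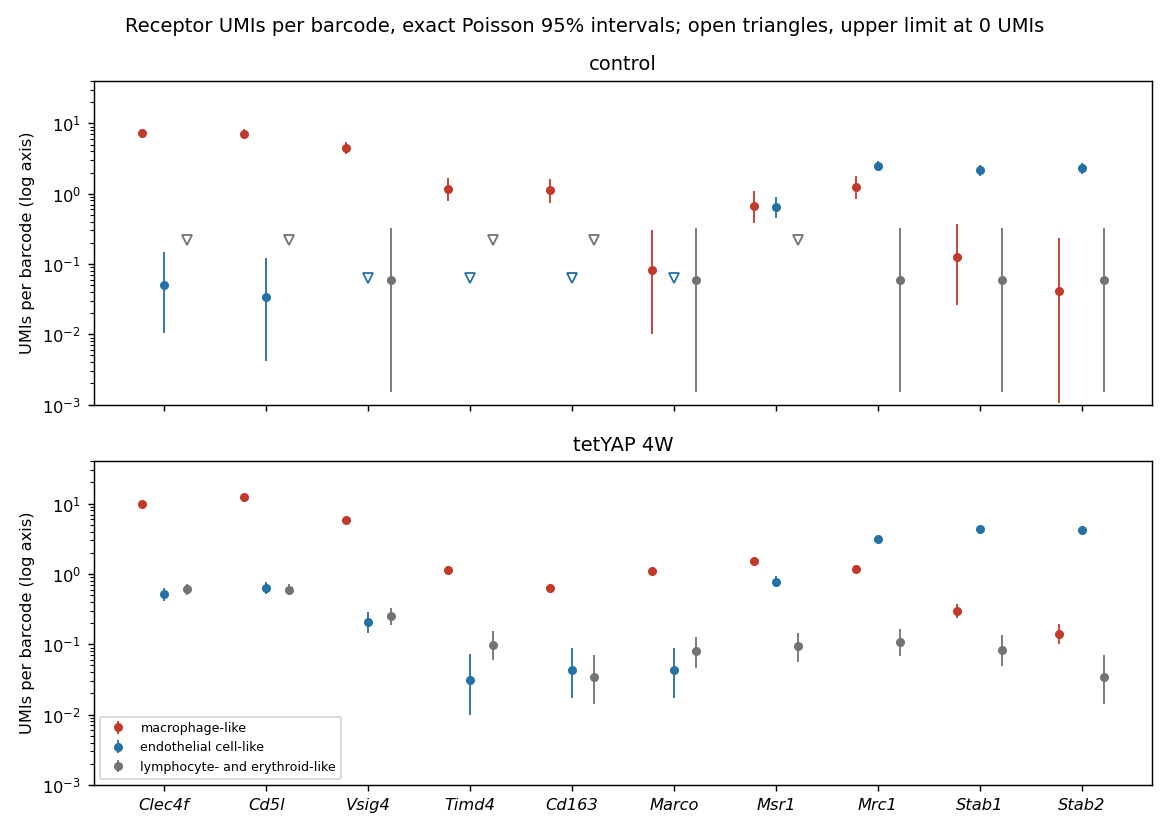
UMIs per barcode (vertical log axis) of the 10 genes in macrophage-like, endothelial cell-like and pooled lymphocyte- and erythroid-like barcodes of the control (top) and tetYAP 4W library (bottom). Points are means with exact Poisson 95% intervals, and open triangles are the upper limit where no UMI was found. In the tetYAP 4W library Clec4f, Cd5l and Vsig4 of endothelial cell-like barcodes sit beside the grey points of cells that should lack them, and Msr1 sits above.

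UMIs of Clec4f, Vsig4, Timd4 and Cd5l were found in every class of the tetYAP 4W library, also in cells that should lack them. Marco and Cd163 were found in lymphocyte- and erythroid-like barcodes, but not in 10 monocyte- or neutrophil-like ones. Levels in cells that should lack these genes were read as background. Clec4f averaged 0.515 UMIs in endothelial cell-like barcodes (0.411 to 0.638) and 0.604 in 202 lymphocyte- and erythroid-like barcodes (0.502 to 0.721). Cd5l averaged 0.632 and 0.599, and Vsig4 0.209 and 0.252, with overlapping intervals. Marco, Cd163 and Timd4 in the endothelial class had 7, 7 and 5 UMIs, at 0.0429, 0.0429 and 0.0307 per barcode, against 0.0792, 0.0347 and 0.0990 in the lymphocyte- and erythroid-like barcodes. In CPM, Clec4f and Timd4 were below these barcodes, at -0.50 (-0.92 to -0.085) and -1.96 (-3.73 to -0.50) on the log2 scale. These 6 genes were therefore at or below background in endothelial cell-like barcodes. Of their UMIs, Clec4f made up 31.9% in macrophage-like barcodes, 35.0% in endothelial cell-like and 36.2% in lymphocyte- and erythroid-like ones, and Cd5l 40.1%, 42.9% and 35.9%. Vsig4 made up 18.8%, 14.2% and 15.1%. The shares of the rarer genes varied more on few UMIs, with Timd4 at 3.7%, 2.1% and 5.9%, Marco at 3.5%, 2.9% and 4.7%, and Cd163 at 2.0%, 2.9% and 2.1%.

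Msr1 in the endothelial class was not at background. Its level in CPM was above that of lymphocyte- and erythroid-like barcodes by 2.78 on the log2 scale (2.08 to 3.56). Stab1 and Stab2 in macrophage-like barcodes of the tetYAP 4W library were above the same background by 1.80 (1.03 to 2.65) and 2.01 (0.83 to 3.42), at 80 and 38 UMIs in all. For Stab1 this depended on the background cells. It was at 13.2 CPM in lymphocyte-like barcodes (6.31 to 24.2) and 48.7 in erythroid-like ones (19.6 to 100, on 7 UMIs). The macrophage-like value of 65.6 CPM (52.0 to 81.6) lay within the erythroid-like interval. Unclassed barcodes were above the pooled background too, by 1.12 (0.39 to 1.94) for Stab1 and 1.56 (0.45 to 2.93) for Stab2. Stab2 was at 31.1 CPM in macrophage-like and 22.9 in unclassed barcodes. In the control the background rested on 17 barcodes, in which 5 of the 10 genes had 1 UMI each and the others none.

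Between the classes of the control library, 5 of the 9 genes that could be counted were at least 2-fold higher in macrophage-like barcodes and 2 at least 2-fold lower. A gene was counted with at least 10 UMIs over both classes, and the ratio is that of the CPM of each class. Of the 4384 genes counted, 12.8% were that much higher and 10.4% that much lower. Against endothelial sums of 0 set to a floor of 3 UMIs, Cd163 was at least 24.2-fold, Timd4 at least 25.1-fold and Vsig4 at least 95.9-fold higher. Counting error alone allows somewhat less, with exact intervals that began at 4.20, 4.25 and 6.26 on the log2 scale. Clec4f was higher by 7.28 on the log2 scale (5.71 to 9.57) against 3 endothelial UMIs, and Cd5l by 7.25 (5.96 to 10.9) against 2 that were set to the floor. Stab1 had a log2 ratio of -3.99 (-6.29 to -2.41), with 3 macrophage UMIs, and Stab2 of -4.07 (-11.0 to -3.15), with 1 set to the floor. Msr1 at 0.18 (-0.76 to 1.06) and Mrc1 at -0.88 (-1.49 to -0.30) were within 2-fold. Marco, with 2 UMIs against 0, could not be counted.

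In the tetYAP 4W library all 10 genes could be counted, and each was at least 2-fold apart between the classes, 7 higher in macrophage-like barcodes and 3 lower. Of the 10007 genes counted there, 11.9% were that much higher and 20.5% that much lower. Timd4 had a log2 ratio of 5.49 (4.25 to 7.12), Vsig4 of 5.06 (4.57 to 5.60) and Marco of 4.92 (3.86 to 6.25). Cd5l, Clec4f and Cd163 followed at 4.56, 4.53 and 4.12. These values include the background in the endothelial class, where Clec4f and Vsig4 had no more UMIs per barcode than unclassed barcodes (0.515 against 0.547, and 0.209 against 0.275). The order of the 6 genes depended on it. With the level of unclassed barcodes subtracted, Clec4f was at 9.3, Vsig4 at 8.5 and Cd5l at 7.6. Timd4, Marco and Cd163 were then at 6.2, 6.1 and 5.3. Msr1 was higher in macrophage-like barcodes by 1.21 (0.92 to 1.51). Mrc1 was lower by a log2 ratio of -1.17 (-1.38 to -0.97), Stab1 of -3.65 (-4.00 to -3.31) and Stab2 of -4.67 (-5.18 to -4.20). The median ratio of the 10 genes was 4.32, beside -0.23 over all genes counted.

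**Figure D3:**
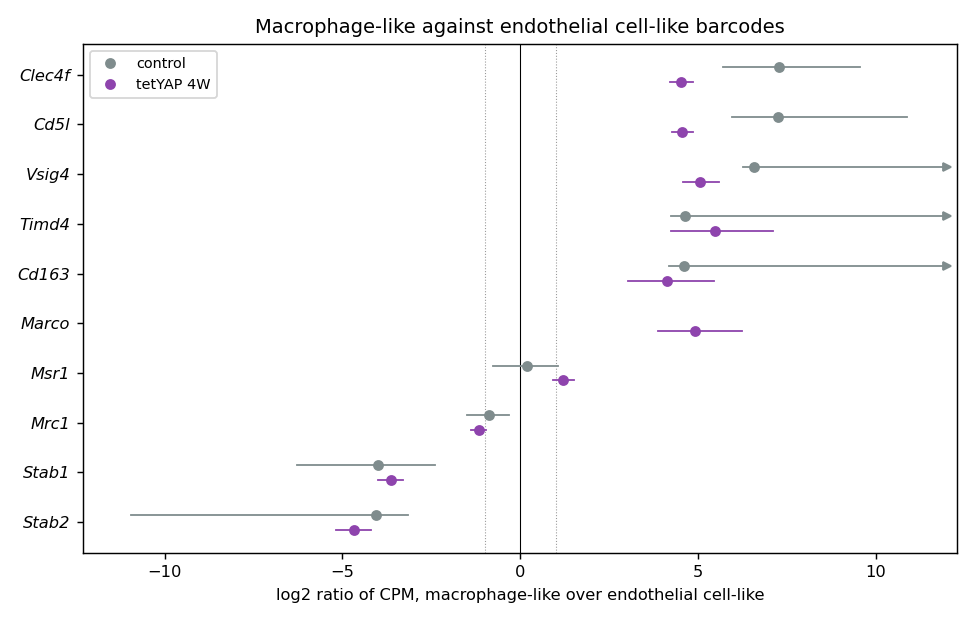
log2 ratio of CPM in macrophage-like over endothelial cell-like barcodes (horizontal axis) for each gene, in the control (grey) and tetYAP 4W library (purple), with exact 95% intervals; Marco could not be counted in the control and has no grey point, arrows mark intervals with no upper bound and dotted lines 2-fold. The points drawn from Clec4f to Marco lie above 4, Stab1 and Stab2 lie below -3, and Msr1 and Mrc1 lie between these groups.

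Several receptors were found in the same barcodes. After thinning to 2000 UMIs, 87.5% of control and 74.8% of tetYAP 4W macrophage-like barcodes had UMIs of at least 3 of the 6 genes Marco, Cd163, Clec4f, Vsig4, Timd4 and Cd5l. In endothelial cell-like barcodes this was so for 0 of 59, which allows a share of up to 5.08% (3 counts of the total; 6.06% by the exact interval), and for 0.613%. UMIs of all of Stab1, Stab2 and Mrc1 were found together in 30.5% and 38.7% of endothelial cell-like barcodes and in 0 of 24 and 1.11% of macrophage-like ones. The product of the 3 separate shares in endothelial cell-like barcodes was 28.1% and 31.8%, so most of this follows from the level of each gene in the class. No such product was formed for the 6 genes, and whether they were found together beyond their levels was not tested. In thinned macrophage-like barcodes of tetYAP 4W, Cd5l was found in 88.5%, Clec4f in 83.3% and Vsig4 in 70.4%. Timd4, Marco and Cd163 were found in 31.1%, 23.3% and 21.1%. The gene groups were formed by the class in which the genes were high.

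The start-site regions of a macrophage-class pair, Cd5l and Vsig4, and of an endothelial-class pair, Stab1 and Mrc1, are shown because each holds a core sequence bound by PU.1, the macrophage lineage factor, whichever class the gene was higher in. Each is the 250 bases before the start in the RefSeq promoter table on GRCm38.p6, which for Stab1 lies 10 bases inside the outer end of the gene given above, read in the direction of transcription, and capitals mark GAGGAA or its reverse complement.
Cd5l, chr3:87357631-87357880, plus strand: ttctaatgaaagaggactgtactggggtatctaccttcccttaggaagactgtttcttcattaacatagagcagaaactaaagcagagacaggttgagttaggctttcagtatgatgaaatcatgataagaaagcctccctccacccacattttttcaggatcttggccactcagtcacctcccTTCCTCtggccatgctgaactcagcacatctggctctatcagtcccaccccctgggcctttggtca
Vsig4, chrX:96293439-96293688, minus strand: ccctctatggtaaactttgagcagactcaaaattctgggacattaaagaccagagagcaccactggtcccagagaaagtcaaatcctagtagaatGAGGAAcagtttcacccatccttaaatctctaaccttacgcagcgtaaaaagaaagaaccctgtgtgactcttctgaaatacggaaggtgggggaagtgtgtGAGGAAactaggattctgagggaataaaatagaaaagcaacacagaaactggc
Stab1, chr14:31168642-31168891, minus strand: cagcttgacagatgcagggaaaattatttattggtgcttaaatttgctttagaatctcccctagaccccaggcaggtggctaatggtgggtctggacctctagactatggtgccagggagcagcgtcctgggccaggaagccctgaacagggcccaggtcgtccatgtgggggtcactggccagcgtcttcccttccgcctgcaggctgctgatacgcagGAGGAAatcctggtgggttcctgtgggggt
Mrc1, chr2:14229164-14229413, plus strand: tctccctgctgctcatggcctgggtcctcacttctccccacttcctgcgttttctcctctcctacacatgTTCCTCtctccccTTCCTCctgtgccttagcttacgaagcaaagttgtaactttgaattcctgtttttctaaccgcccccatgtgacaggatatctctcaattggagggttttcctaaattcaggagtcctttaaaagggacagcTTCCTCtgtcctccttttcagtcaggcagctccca
Of 9 genes with an entry, 5 held GAGGAA on either strand: these 4 and Marco. Among 32851 mouse promoter windows of the same length 23.3% did. The first base of the match lay 66 bases before the start in Cd5l, 155 and 53 before it in Vsig4, 30 in Stab1, and 180, 167 and 35 in Mrc1. GGAATG, the core read by the YAP partners of the TEAD family, was in 0 of 9 windows and in 12.6% of all. The letters AGATAA, read by zinc finger factors of the erythroid and endothelial lineages, were in 0 of 9 and 9.99%. Only this form was searched for, and TGATAA, which differs in the first letter, is in the Cd5l window above. TGANTCA, read by AP-1, was in 0 of 9 and 6.75%. These matches describe letters in a window and not sites of binding.

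Between the libraries, macrophage-like barcodes of the tetYAP 4W library had more Marco, Msr1 and Cd5l, while Cd163 was lower by an amount that depended on the scaling. In CPM, Clec4f, Vsig4, Timd4 and Mrc1 were within 1.5-fold, which for Clec4f and Vsig4 also depended on the scaling. Marco had 295 UMIs against 2, or 242 against 19.5 CPM, a log2 ratio of 3.05 (1.77 to 6.68) with the control set to the floor. Msr1 was at 335 against 156 CPM, or 1.10 on the log2 scale (0.39 to 1.92). Stab1 was at 65.6 against 29.3 CPM, 1.16 (-0.44 to 3.47), with only 3 control UMIs. In unclassed barcodes Stab1 was at 40.9 CPM in tetYAP 4W and 8.33 in the control, and the part of this level in its difference was not tested. Marco, Msr1 and Stab1 were the 3 of 10 genes at least 2-fold higher, beside 4.69% of the 4945 genes counted. None was at least 2-fold lower, beside 19.0%.

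Cd5l was higher by 0.74 (0.51 to 0.97), Clec4f by 0.38 (0.16 to 0.61) and Vsig4 by 0.31 (0.03 to 0.60). Cd163 was at 139 against 263 CPM, a log2 ratio of -0.93 (-1.52 to -0.28), the only interval of the 10 below 0. Mrc1 at -0.16 (-0.70 to 0.43) and Timd4 at -0.10 (-0.66 to 0.52) changed sign with TMM scaling, to 0.27 and 0.33, since these factors moved every ratio of this comparison up by 0.43. Under the same scaling Cd163 was at -0.50, with an interval that included 0 (-1.09 to 0.14), and Msr1 at 1.53 (0.81 to 2.35). Clec4f at 0.81 (0.59 to 1.04) and Vsig4 at 0.74 (0.45 to 1.03) were then past 1.5-fold, and Cd5l was at 1.17 (0.94 to 1.40). With a limit of 5 marker UMIs, which put 411 tetYAP 4W barcodes in the class, Msr1 was at 0.65 and Cd163 at -1.13, so that 1 gene was 2-fold higher and 1 lower. The median of the 10 genes was 0.35, beside -0.24 over all genes counted. Of the 9 macrophage markers that set the class, 8 were higher in tetYAP 4W, from -0.01 for Csf1r to 1.09 for Lyz2 with a median of 0.36, and their part in these differences was not tested.

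In endothelial cell-like barcodes the stabilins were higher in tetYAP 4W. Stab1 was at 821 against 465 CPM, or 0.82 on the log2 scale (0.55 to 1.10), and Stab2 at 794 against 490 CPM, or 0.70 (0.43 to 0.97). Of the 14 endothelial markers that set the class, 12 were higher in tetYAP 4W too, from -0.39 for Bmp2 to 1.13 for Esam with a median of 0.56, a range that holds both stabilins. In clusters made without the 10 genes, the endothelial barcodes of the libraries lay apart, with 55 control and 2 tetYAP 4W barcodes in a cluster and 5 and 127 in another. The part of either in the stabilin differences was not tested. Mrc1 at 0.14 (-0.13 to 0.41) and Msr1 at 0.07 (-0.46 to 0.63) had intervals that included 0. Clec4f at 3.14, Cd5l at 3.43 and Vsig4, at least 3.56-fold higher against a control sum of 0 set to the floor (exact interval from 1.45 on the log2 scale), were the 3 of 7 counted genes past 2-fold, beside 12.2% of the 8176 genes counted, and none was at least 2-fold lower, beside 7.99%. All 3 were at or below the background level given above for the tetYAP 4W library. With the level of unclassed barcodes subtracted, 0 genes were past 2-fold. Stab1 was then at 0.78 and Stab2 at 0.68. The median over all genes counted was 0.20.

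**Figure D4:**
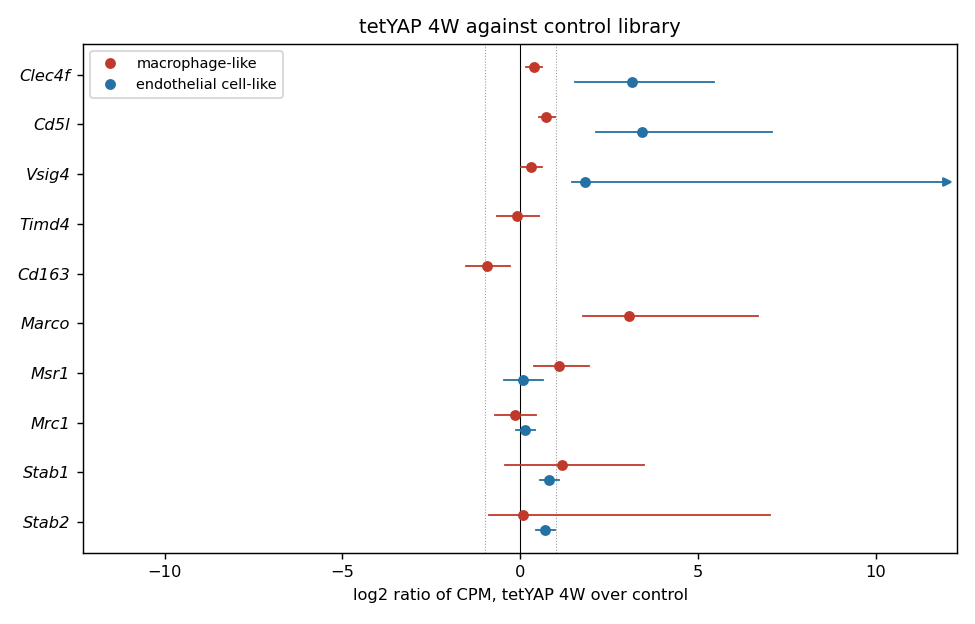
log2 ratio of CPM in the tetYAP 4W over the control library (horizontal axis) for each gene, in macrophage-like (red) and endothelial cell-like barcodes (blue), with exact 95% intervals; dotted lines mark 2-fold, the arrow an interval with no upper bound, and genes that could not be counted have no point. Marco lies at 3.05 and Cd163 at -0.93 in macrophage-like barcodes. The blue points of Clec4f, Cd5l and Vsig4 lie far right, for genes at or below background levels in tetYAP 4W.

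The macrophage-like barcodes of the tetYAP 4W library were not uniform in the receptors. By 8 Kupffer genes such as Fcna and Folr2 and 14 genes of monocytes and lipid-associated macrophages such as Ccr2 and Trem2, none of them among the 10, 227 barcodes had more Kupffer UMIs, 31 more monocyte UMIs and 12 equal numbers. In the control the split was 23 to 1. Genes of the second list were not alike in tetYAP 4W. Kupffer-led over monocyte-led, Ccr2 was at -7.10 on the log2 scale (-9.42 to -5.49) and Trem2 at -0.06 (-1.31 to 1.47). Lpl went the other way, at 0.88 (0.25 to 1.58). All 10 genes had the higher point value in Kupffer-led barcodes of the tetYAP 4W library, beside 47.1% of the 6088 genes counted. Timd4 had 1.34 UMIs per Kupffer-led and 0.129 per monocyte-led barcode, a log2 ratio of CPM of 3.49 (2.12 to 5.38). Clec4f had 11.6 and 1.42 (3.14, 2.71 to 3.61), and Cd163 0.722 and 0.0645 (3.02, 1.72 to 6.66, with 2 UMIs set to the floor). Cd5l, Vsig4 and Mrc1 followed at 2.83, 2.78 and 2.50.

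Marco and Msr1 differed between these barcodes by 2.07 (1.17 to 3.15) and 1.95 (1.21 to 2.80), and a Marco UMI was found in 33.0% of Kupffer-led and 22.6% of monocyte-led barcodes. Stab2 at 0.74 (-0.63 to 4.43) had an interval that included 0. Median depth was 4336 and 4434 UMIs. In Kupffer-led barcodes alone the difference between the libraries was 3.19 for Marco (1.91 to 6.83), 1.24 for Msr1 (0.52 to 2.06) and -0.77 for Cd163 (-1.37 to -0.13).

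**Figure D5:**
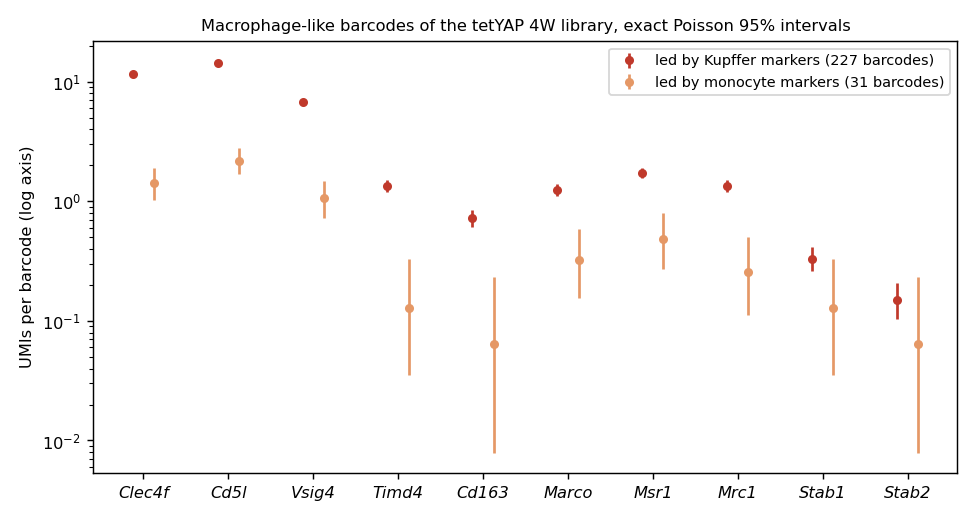
UMIs per barcode (vertical log axis) of the 10 genes in macrophage-like barcodes of the tetYAP 4W library led by Kupffer markers (dark red, 227 barcodes) or by monocyte markers (orange, 31 barcodes), with exact Poisson 95% intervals. The dark red point is the higher in all 10 genes, and the intervals overlap for Stab1 and Stab2.

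Other receptors were also compared between barcodes rich in Marco and barcodes without it. The 53 macrophage-like barcodes with at least 2 Marco UMIs, at a median depth of 5453 UMIs, were set beside the 187 with none, at 4089. In CPM, 8 of the 9 other genes were higher in the first, beside 62.0% of the 7616 genes counted: Cd163 by 0.94 on the log2 scale (0.44 to 1.42), Cd5l by 0.87 (0.76 to 0.98), Mrc1 by 0.84 (0.48 to 1.20) and Msr1 by 0.62 (0.30 to 0.94). Clec4f, at 16.7 against 8.04 UMIs per barcode, was higher by 0.75 (0.63 to 0.87). The stabilins went opposite ways on few UMIs. Stab1 was lower, at -1.06 (-2.20 to -0.09), with 10 and 60 UMIs, and Stab2 higher, at 1.52 (0.46 to 2.58), with 17 and 17. Because these barcodes were chosen by a measured receptor, the values are a description.

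Over the 270 macrophage-like barcodes of the tetYAP 4W library, the gene most like Vsig4 was Wfdc17 (Pearson r of log-scaled counts 0.71), that most like Clec4f was C1qa (0.64) and that most like Cd5l was Fcna (0.68). C1qa encodes a chain of complement C1q, and Fcna a ficolin. Fcna was also first for Timd4 (0.50), Msr1 (0.43) and Cd163 (0.33), followed for Cd163 by Cdh5 (0.28). Lgmn, a lysosomal protease gene, was first for Mrc1 (0.47), and Cd84 for Marco (0.34). Over the 163 endothelial cell-like barcodes, Stab2 was most like Maf (0.61), a transcription factor gene, and Plpp3 (0.60), and Stab1 most like Malat1 (0.48), a nuclear RNA, and Dnase1l3 (0.43). All points of such a correlation share a library and vary in depth.

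Other uptake receptors were compared between the classes too. Of 39 further scavenger, lectin, Fc and dying-cell receptors, 30 could be counted in tetYAP 4W. Of these, 18 were at least 2-fold higher in macrophage-like barcodes and 6 at least 2-fold lower. Over all genes counted there, 11.9% were that much higher and 20.5% that much lower, so the lower count was near the general share. Those most to the macrophage side were Cd14 (4.99 on the log2 scale), a lipopolysaccharide coreceptor, Cd68 (4.86), a lysosomal glycoprotein gene, Fcgr3 (4.85) and Fcgr1 (4.70), which encode Fc receptors, and C3ar1 (4.71), a complement receptor gene. Those most to the endothelial side were Cd93 (-5.11), Fcgr2b (-4.84), an inhibitory Fc receptor gene, Lyve1 (-4.27), a hyaluronan receptor gene, Scarf1 (-1.94) and Cd36 (-1.76), a fatty acid and lipoprotein receptor gene. In the control 9 were higher and 5 lower of 21 counted, beside 12.8% and 10.4% of all genes counted. Between the libraries 5 of 22 were at least 2-fold higher in macrophage-like barcodes and none lower, beside 4.69% and 19.0%. In endothelial cell-like barcodes 5 of 18 were higher and 1 lower, beside 12.2% and 7.99%. The lower gene, Tlr4, had 7 UMIs in each library and an interval that included 0 (-3.41 to 0.07).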

How the data were processed

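The authors deposited counts, whole numbers of UMIs per gene and barcode, for 1 control and 1 tetYAP 4W library. Per the labels and the study's methods, reads were processed with Cell Ranger on mm10, conditions were each cut to 3000 cells and cells over 7500 UMIs left out. The table holds 2989 control but 1524 tetYAP 4W barcodes, none over that limit. All were used, and class shares are of these. A barcode was classed by at least 10 UMIs of 9 macrophage or 14 endothelial markers (5 for lymphocytes, 50 for erythroid cells). Where another class reached 33.3% of the leading one, the barcode was called mixed and set aside, and no other doublet removal was made. The members and all lists were chosen with earlier results of these data known. UMIs were summed by class, and CPM ratios were formed with a floor of 3 UMIs and at least 10 UMIs over both sums. Sums have exact Poisson, shares exact (Clopper-Pearson) and ratios exact conditional binomial 95% intervals. Only the ratio intervals were run on simulated data. Those counts were drawn as Poisson from the class sums, so they cannot show how the intervals behave with spread between barcodes. The other uptake receptors named were the 5 highest and 5 lowest past 2-fold in tetYAP 4W, and alike genes the 3 highest by Pearson r. Clusters were made with scanpy 1.11.5 without the members, and edgeR 4.0.16 gave TMM factors only. Promoter windows are RefSeq's on GRCm38.p6. The split by central and portal genes and the limit of 30% on mitochondrial UMIs were chosen after seeing the data.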

Additional observations from a re-analysis of the deposited data

How the results depend on the processing

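No paired analysis was possible because each group has 1 library and the labels give no replicate numbers, and for the same reason no library could be left out. The counts of genes past 2-fold between the classes stayed within 1.5 times of those reported under all alternatives run, and over all comparisons 5 such values moved and 99 did not. In macrophage-like barcodes, with a limit of 5 marker UMIs, 1 gene was at least 2-fold higher in the tetYAP 4W library and 1 lower, in place of 3 and 0. With barcodes of at most 30% mitochondrial UMIs, an alternative chosen after seeing the data, the numbers were also 1 and 1. With the level of unclassed barcodes subtracted, 0 genes were higher in endothelial cell-like barcodes, in place of 3. The cause was not tested, except that subtraction removes the level found in unclassed barcodes by construction. Between the libraries in macrophage-like barcodes, Timd4 changed sign in 6 alternatives, Mrc1 in 4 and Stab2 in 3. In endothelial cell-like barcodes Msr1 did so in 2 and Mrc1 in 1, and Msr1 between the classes of the control in 2. All of these had intervals that included 0. Of the values for single genes, 38 moved by more than their counting interval and 444 did not. Between the classes of tetYAP 4W, Cd5l moved that far in 5 alternatives, Stab1, Mrc1, Clec4f and Vsig4 in 3 each, and Msr1 and Stab2 in 2 each. In that comparison Clec4f ranged from 3.98 to 9.25 and Cd5l from 4.01 to 7.62, and no gene changed sign. The log2 difference of Marco between the libraries in macrophage-like barcodes ranged from 2.38 to 3.57, that of Msr1 from 0.65 to 1.53 and that of Cd163 from -1.31 to -0.49. None of these 3 moved past its counting interval. In the same comparison Cd5l did so in 4 alternatives, Clec4f in 3, Vsig4 in 3 and Stab2 in 1. Cd5l ranged from 0.35 to 1.17, Clec4f from 0.04 to 0.81, Vsig4 from 0.02 to 0.74 and Stab2 from -1.09 to 1.11. The control macrophage class has 24 barcodes, which limits every ratio against it.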

Other observations

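Endothelial cells of the sinusoid differ along the path from portal to central vein, and the 4 receptors counted in them, Msr1, Stab1, Stab2 and Mrc1, were set along it. Endothelial cell-like barcodes were split by 6 central genes, such as Wnt2 and Rspo3, against 6 portal ones, such as Efnb2 and Dll4, lists chosen after seeing the data. In the tetYAP 4W library 57 barcodes had more central UMIs, 82 more portal UMIs and 24 equal numbers. Msr1 had 0.509 UMIs per central-led and 0.951 per portal-led barcode, a log2 ratio of CPM of -0.94 (-1.61 to -0.31). Stab1 at 0.10 (-0.13 to 0.33), Mrc1 at 0.12 (-0.16 to 0.39) and Stab2 at -0.00 (-0.24 to 0.23) had intervals that included 0. In the control, with 11 central-led and 23 portal-led barcodes, Msr1 had 4 and 22 UMIs, a log2 ratio of -1.38 (-3.37 to 0.18). Stab2 was at 0.64 (-0.07 to 1.35), Stab1 at 0.40 (-0.38 to 1.16) and Mrc1 at 0.02 (-0.79 to 0.78), so all 4 control intervals included 0. Whether Msr1 differed from the other genes was not tested.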
